A study of Mus musculus with 50 samples.

Results

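Timp1, Sh3kbp1, Plp2, Apex2 and Rbbp7 are the X-linked genes whose share of reads from the 129 chromosome differed between RepB and wild-type (WT) mouse embryonic fibroblasts (MEF). Genes were chosen by these MEF read shares: one was taken when the exact 95% intervals of that share, 129 reads over the sum of 129 and CAST reads, lay apart in the RepB and the WT library. The rule found 5 genes among 241 X-linked genes with a mean of at least 20 allelic reads per MEF library, of 1063 X-linked genes and 24391 genes in the count tables. Because the MEF shares chose the genes, they are described without a test, and the ES cell libraries, which the rule did not use, carry the tests.

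RNA-seq of poly(A) RNA gave 6 libraries of differentiated mouse embryonic stem (ES) cells and 2 MEF libraries, and all 8 came from CAST/Ei by 129/Sv/Jae hybrids, in which reads over strain variants can be given to a chromosome. The ES cells were RepB-/-, RepB+/- or WT for Repeat B, which is a repeated stretch of the noncoding transcript Xist, and each genotype has 2 libraries. They had grown on irradiated fibroblast feeders that were removed, then spent 4 days in suspension as embryoid bodies and 10 days on gelatin. The RepB and WT MEF lines gave 1 library each. The labels record loss of Repeat B for the RepB MEF without naming the allele. They do not say which chromosome lost the repeat in RepB+/- ES cells, or whether replicate libraries came from separate cultures. The p-values therefore measure only the spread between these libraries. In the allelic fit this spread was pooled over genes, so the replicate difference of a single gene did not set its own p-value.

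Xist is made from the X chromosome that is to be silenced, spreads along it and brings in Polycomb complexes, which mark its histones. Genes that are silenced in this way are read almost only from the other, active X chromosome, and a minority, called escape genes, are read from both. In hybrid cells in which the same X chromosome is silenced throughout, the share of reads from the silenced chromosome therefore reports silencing gene by gene.

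The 129 chromosome was the source of 99.2% of allelic Xist reads in RepB MEF and 99.7% in WT MEF. In ES cells it gave 89.2% and 87.2% in RepB-/-, 97.8% and 97.25% in RepB+/-, and 98.9% and 98.6% in WT. Whether the same X chromosome was silenced in all cells of a library was not tested. The libraries held 8000722 to 28045645 counts, of which 26.7% to 28.0% could be given to an allele, and intervals and limits below cover counting error only. RepB+/- replicate 2 was the shallowest. Fibroblast markers summed to 48800 CPM (reads scaled to the total count of the library) in RepB MEF and 59600 in WT MEF, with 10 and 12 of 14 markers over 1 CPM, and Thy1, Lum and Fap were at 0 in a MEF library. On the autosomes the MEF libraries stood apart by whole chromosomes: 2007 of 9510 genes (21.1%) met the interval rule, from 3.38% to 66.3% per chromosome. Chromosome 4, for example, had a median 129 share of 34.2% in RepB MEF and 56.9% in WT MEF, and the part of such differences in the X-linked values was not tested. X-linked genes other than Xist had a median share of 0.425% in RepB MEF and 0% in WT MEF, and 107 and 124 of 240 were at 0.

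**Figure D1:**
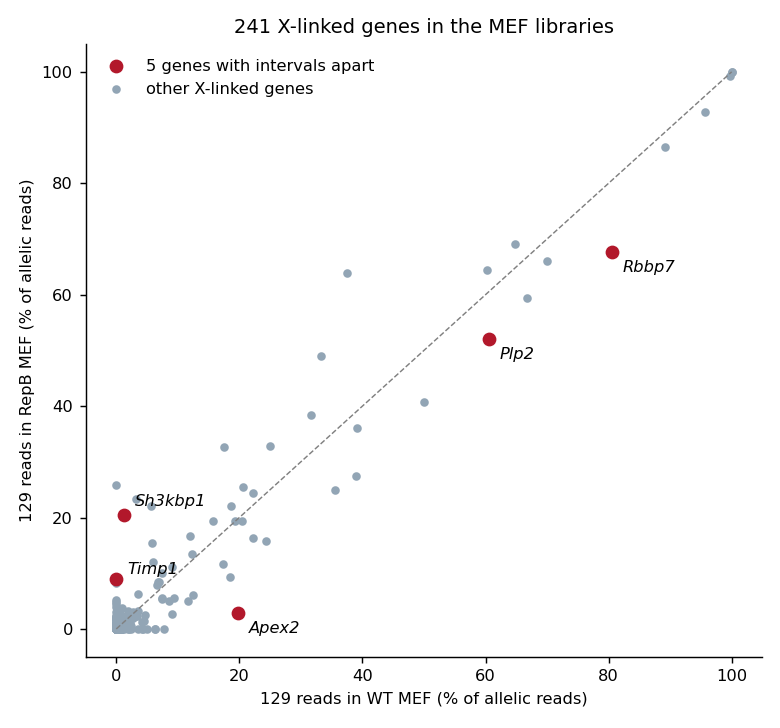
Share of 129 reads (percent of allelic reads) of 241 X-linked genes in RepB MEF (vertical axis) and in WT MEF (horizontal axis), 1 library each, with the line of equal shares. Most genes sit near 0 on both axes, Timp1 and Sh3kbp1 lie above the line, and Plp2, Apex2 and Rbbp7 lie below it.

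In fibroblasts, Timp1 and Sh3kbp1 had a larger 129 share in RepB than in WT (2 of 241 X-linked genes, 0.83%), and Plp2, Apex2 and Rbbp7 a smaller one (3 of 241, 1.24%). Together these were 2.07% of the X-linked genes, against 4.52% of the 354 measured genes of chromosome 13. Many X-linked genes had a share near 0 in both libraries, and of the 55 with a share over 5% and under 95% in a MEF library, a range taken from the same shares, the 5 genes were 9.09%. The same interval rule applied to replicates of 1 genotype in ES cells set apart 3.01% of 399 X-linked genes in RepB-/-, 7.09% of 381 in RepB+/- and 2.40% of 333 in WT, Plp2 among those of RepB+/- and Sh3kbp1 among those of WT. A further 11 X-linked genes differed by at least 8.49 percentage points between the MEF libraries, 7 of them higher in RepB, and their intervals overlapped. The 5 genes had a median of 246 allelic reads (mean of both MEF libraries), against 61.0 for these 11, 1 of which reached 248 in a MEF library. Inside the rule, the intervals of Plp2 missed each other by 0.136 points and those of Rbbp7 by 1.64, against 3.69 for Timp1, 5.78 for Apex2 and 11.6 for Sh3kbp1. Just outside it lay Flna (0.482% in RepB and 0.365% in WT, a gap of -0.0849 points, where a negative gap is an overlap), Hdac6 (0.274% in RepB and 1.94% in WT, -0.0922 points) and Xist (-0.152 points). With exact 99% intervals Timp1, Sh3kbp1 and Apex2 were apart, and Plp2 and Rbbp7 were not.

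RefSeq promoters (GRCm38.p6, 250 bases before to 50 bases after an annotated start) were matched for 3 of the 5 genes, Timp1, Sh3kbp1 and Rbbp7, and not for Plp2 and Apex2. They are shown for their CG pairs, in capitals, which differ widely in number. Sh3kbp1, close to Rbbp7 in CG pairs, had 1.32% of its allelic reads from 129 in WT MEF, Rbbp7 80.6% and Timp1 0%, and no relation between the number and the share was tested. For Sh3kbp1 the first of 4 annotated starts is given.
Timp1 (chrX:20869916-20870215, plus strand): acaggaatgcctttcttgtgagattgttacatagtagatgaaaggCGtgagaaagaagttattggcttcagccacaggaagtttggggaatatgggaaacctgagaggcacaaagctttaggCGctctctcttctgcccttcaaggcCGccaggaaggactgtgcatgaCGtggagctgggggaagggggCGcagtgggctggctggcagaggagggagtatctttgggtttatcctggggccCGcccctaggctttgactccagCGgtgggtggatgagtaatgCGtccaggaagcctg
Sh3kbp1 (chrX:159627022-159627321, plus strand): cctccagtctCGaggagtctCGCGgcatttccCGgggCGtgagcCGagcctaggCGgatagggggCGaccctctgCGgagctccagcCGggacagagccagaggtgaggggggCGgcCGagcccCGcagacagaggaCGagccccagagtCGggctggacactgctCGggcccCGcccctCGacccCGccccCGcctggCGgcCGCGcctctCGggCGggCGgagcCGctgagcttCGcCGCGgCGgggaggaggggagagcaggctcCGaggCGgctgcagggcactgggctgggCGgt
Rbbp7 (chrX:162760122-162760421, plus strand): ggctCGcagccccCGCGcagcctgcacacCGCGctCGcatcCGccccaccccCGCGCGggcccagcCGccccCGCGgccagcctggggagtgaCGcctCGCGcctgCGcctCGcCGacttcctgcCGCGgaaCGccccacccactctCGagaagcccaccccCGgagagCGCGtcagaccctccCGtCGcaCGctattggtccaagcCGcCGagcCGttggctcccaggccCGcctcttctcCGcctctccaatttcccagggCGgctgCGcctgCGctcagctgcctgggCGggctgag
The Timp1 window held 8 CG pairs, near the median of 7.0 over 1223 X-linked promoters, while that of Sh3kbp1 held 34 and that of Rbbp7 held 38, more than 97.4% and 98.4% of X-linked promoters. The other Sh3kbp1 starts held 33, 6 and 2. The GC box letters GGGCGG, searched on both strands and themselves containing a CG pair, occurred 1 time in the Timp1 window, 6 times in that of Sh3kbp1 and 4 times in that of Rbbp7, and 33.9% of X-linked promoters hold them. The letters CCAAT, on either strand, occurred 1 time for Timp1, 2 times for Rbbp7 and not for Sh3kbp1, and are held by 45.0% of X-linked promoters.

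Timp1 encodes a secreted inhibitor of matrix metalloproteinases that fibroblasts release in quantity. The count table places it on the plus strand of chromosome X with an exon at 20447292 to 20447450 (mm9). In MEF it was read from 129 in RepB alone: 25 of 279 allelic reads were from 129 in RepB (8.96%, exact 95% interval 5.88% to 12.9%), against 0 of 166 in WT (0%, interval up to 2.20%). In CPM its 129 reads in RepB MEF were at least 5.42-fold higher than the floor of 3 counts that 0 reads in the WT library allow. CAST reads were level, at 13.6 CPM in RepB and 13.7 CPM in WT. Timp1 in ES cells had 129 shares of 40.8% and 39.3% in RepB-/-, 42.3% and 25.4% in RepB+/-, and 5.34% and 1.02% in WT. Both RepB genotypes lay wholly above WT, and the lowest RepB value came from the shallowest library, with 59 allelic reads. The ratio of 129 to CAST reads rose by 4.19 on the log2 scale in RepB-/- (SE 0.549, edgeR adjusted p = 3.11e-12) and by 4.02 in RepB+/- (SE 0.587, edgeR adjusted p = 9.42e-10). Reads from 129 averaged 5.15 ± 0.428 CPM in RepB-/-, 3.23 ± 1.92 in RepB+/- and 0.218 ± 0.195 in WT, while CAST reads averaged 7.70 ± 0.306, 5.89 ± 0.547 and 7.03 ± 1.03 CPM (SD, n = 2 each). The direction was the same in MEF and in ES cells, and the difference in size between the cell types was not tested. On the opposite strand Syn1 overlaps Timp1, and strand use in the counting is not stated. Syn1 had 8.14% to 20.9% as many reads as Timp1 in RepB ES libraries and 6.62% and 6.77% in WT ES. In MEF it had 1.38% in RepB and 3.66% in WT.

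Sh3kbp1 encodes the adaptor protein CIN85, which links the ubiquitin ligase Cbl to receptor endocytosis. It lies on the plus strand with a listed exon at 156065204 to 156065623 (mm9). In MEF 70 of 342 allelic reads came from 129 in RepB (20.5%, interval 16.3% to 25.1%), against 2 of 151 in WT (1.32%, interval 0.161% to 4.70%). Reads from 129 were 3.76 CPM in RepB and 0.165 CPM in WT, and CAST reads 14.6 and 12.3 CPM. Of the 5 genes it had the largest gap between intervals. In ES cells the shares were 21.9% and 21.8% in RepB-/-, 23.5% and 28.3% in RepB+/-, and 3.12% and 33.3% in WT. The WT libraries stood on either side of all RepB libraries and their own intervals (0.649% to 8.86% and 21.7% to 46.7%) lay apart, so the groups overlapped. The ratio was not called: its log2 change was 0.63 in RepB-/- (SE 0.535, 95% interval -0.42 to 1.68, edgeR adjusted p = 1) and 0.89 in RepB+/- (SE 0.559, interval -0.21 to 1.98, edgeR adjusted p = 1). Without WT replicate 2 it was 3.06 in RepB-/- (edgeR adjusted p = 0.0185) and 3.32 in RepB+/- (edgeR adjusted p = 0.00791), and without WT replicate 1 the direction turned, to -0.84 and -0.59 (edgeR adjusted p = 1 for both), with the lone WT library assumed to vary like the other groups. Which of the WT libraries is typical cannot be told from 2.

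Plp2 encodes a small multi-pass membrane protein with a MARVEL domain, and lies on the minus strand with a listed exon at 7245242 to 7245632 (mm9). It was read from both chromosomes in every library. In MEF 378 of 727 allelic reads were from 129 in RepB (52.0%, interval 48.3% to 55.7%), against 274 of 453 in WT (60.5%, interval 55.8% to 65.0%). Reads from 129 were 20.3 CPM in RepB and 22.6 in WT, and CAST reads 18.7 and 14.8 CPM. In ES cells the direction was the opposite, with shares of 63.6% and 65.4% in RepB-/-, 63.9% and 71.5% in RepB+/-, and 50.5% and 57.3% in WT. All 4 RepB libraries lay above both WT libraries. The log2 ratio of 129 to CAST reads rose by 0.82 in RepB+/- (SE 0.214, edgeR adjusted p = 0.00577). That call was lost without WT replicate 1 (edgeR adjusted p = 0.566), without RepB+/- replicate 2 (0.145), with TMM scaling of the allele columns (log2 change 0.76, adjusted p = 1) and with DESeq2 (0.84, adjusted p = 0.976). In RepB-/- the change was 0.65 (SE 0.207, interval 0.24 to 1.05, edgeR adjusted p = 0.0728) and was not called. It was called with a replicate block (edgeR adjusted p = 0.0388), with only the 4 libraries compared (0.0116) and without either RepB+/- library (0.0113 and 0.0111), and with TMM scaling of the allele columns the change was 0.21 (edgeR adjusted p = 1). Reads from 129 averaged 40.7 ± 1.24 CPM in RepB-/-, 41.8 ± 5.86 in RepB+/- and 26.9 ± 2.95 in WT, and those from CAST 22.5 ± 1.92, 19.8 ± 2.08 and 23.0 ± 1.93 (SD, n = 2 each). Prickle3 overlaps Plp2 on the opposite strand, and strand use in the counting is not stated. Prickle3 had 29.1% to 43.9% as many reads as Plp2 in RepB ES libraries and 62.7% and 61.2% in WT ES. In MEF it had 0.494% in RepB and 1.17% in WT. Its allelic reads in WT ES were 4 from 129 in each library, against 295 and 173 from CAST. In RepB-/- they were 46 and 55 from 129, against 213 and 224 from CAST. In RepB+/- they were 72 and 16, against 234 and 90. The part of such reads in the Plp2 shares was not tested.

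Apex2 encodes a nuclease that cuts DNA at abasic sites and serves in base excision repair. It lies on the minus strand with a listed exon at 147006050 to 147007225 (mm9). In MEF its 129 share ran against Timp1 and Sh3kbp1: 5 of 174 allelic reads in RepB (2.87%, interval 0.940% to 6.58%), against 19 of 96 in WT (19.8%, interval 12.4% to 29.2%). Reads from 129 were 0.268 CPM in RepB and 1.57 CPM in WT, and CAST reads 9.07 and 6.35 CPM. ES cells showed no such separation, with shares of 29.1% and 21.5% in RepB-/-, 30.2% and 11.1% in RepB+/-, and 29.5% and 29.3% in WT. The 11.1% rests on 27 allelic reads. RepB+/- and WT overlapped, and RepB-/- lay below WT, in replicate 1 by less than the counting interval. The 129 to CAST ratio had a log2 change of -0.29 in RepB-/- (SE 0.556, interval -1.38 to 0.80, edgeR adjusted p = 1) and -0.26 in RepB+/- (SE 0.597, interval -1.43 to 0.91, edgeR adjusted p = 1). The RepB+/- value was -1.72 without RepB+/- replicate 1 and 0.06 without RepB+/- replicate 2, and the RepB-/- value was -0.60 without RepB-/- replicate 1 and -0.02 without RepB-/- replicate 2. In WT ES cells 92.3% and 93.5% of the other X-linked genes with at least 20 allelic reads had a lower share than Apex2, whereas 38.1% and 20.0% did in RepB-/- and 38.1% and 6.36% in RepB+/-. Apex2 overlaps Pfkfb1 and Tmem29 in the RefSeq annotation. Pfkfb1 had 102% to 165% as many reads as Apex2 in ES cells and 23.0% and 36.6% in RepB and WT MEF, and Tmem29 had 42.7% to 103% over the 8 libraries. How reads of overlapping genes were shared out is not given in the sources used here. Of the allelic reads counted for Pfkfb1, 0 came from 129 in both MEF libraries.

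Rbbp7 encodes a histone-binding protein of several chromatin complexes, among them Polycomb repressive complex 2 (PRC2), NuRD and Sin3. It lies on the plus strand with a listed exon at 159198304 to 159198639 (mm9). Reads from 129, the chromosome that gave most Xist reads, outnumbered CAST reads in all 8 libraries. In MEF 246 of 364 allelic reads were from 129 in RepB (67.6%, interval 62.5% to 72.4%), against 145 of 180 in WT (80.6%, interval 74.0% to 86.1%). CAST reads were 6.33 CPM in RepB and 2.89 in WT, and 129 reads 13.2 and 12.0 CPM. ES cell shares were 82.1% and 80.0% in RepB-/-, 79.4% and 78.9% in RepB+/-, and 82.8% and 81.3% in WT. They spanned a few percentage points, with RepB+/- just below WT and RepB-/- overlapping it. On the log2 scale the ratio changed by -0.10 in RepB-/- (SE 0.234, interval -0.56 to 0.36, edgeR adjusted p = 1) and -0.27 in RepB+/- (SE 0.244, interval -0.75 to 0.21, edgeR adjusted p = 1). Only 10.9% of Rbbp7 reads over the 8 libraries could be given to an allele, against 84.9% for Plp2. Txlng overlaps Rbbp7 on the opposite strand, with 1.74% to 4.34% as many reads as Rbbp7 over the 8 libraries. In MEF it had 3.23% in RepB and 1.74% in WT. Allelic reads counted for Txlng in MEF were 13 from CAST in RepB and 5 in WT, and 0 from 129 in both. Their part in the Rbbp7 shares was not tested.

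**Figure D2:**
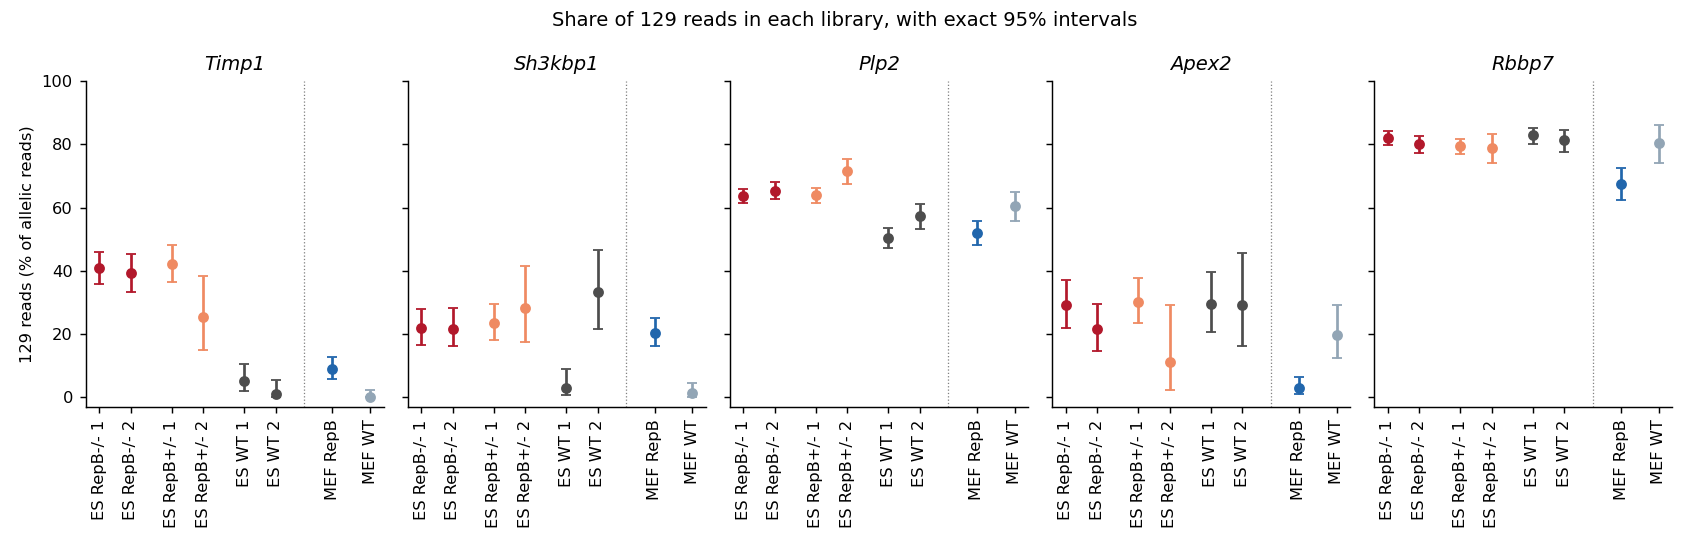
Share of 129 reads (percent of allelic reads) of the 5 genes in each of the 8 libraries, points with exact 95% intervals, RepB libraries left of WT libraries and MEF right of the dotted line. Timp1 is raised in RepB in both cell types, Sh3kbp1 differs between its WT ES libraries, and Plp2 moves in opposite directions in ES cells and MEF.

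Set side by side, 2 of the 5 genes shifted toward 129 in RepB+/- ES cells and 1 of 5 in RepB-/- ES cells. Among all X-linked genes tested these shares were 59.7% (225 of 377) and 62.1% (234 of 377), with median log2 changes of 2.86 and 2.91. The medians of the 5 genes were 0.82 and 0.63, and none shifted toward CAST, where 0.265% of X-linked genes (1 of 377, Xist) were called in each contrast. Both contrasts use the same WT libraries. Between RepB-/- and RepB+/- 0 of the 5 were called by edgeR or by DESeq2, and 0 had an unadjusted p under 0.05, where 0.265% of X-linked genes shifted each way. Their log2 changes there ran from -0.26 for Sh3kbp1 to 0.17 for Timp1 and Rbbp7. An exact permutation test of the library shares could not go below p = 0.333 with 2 against 2. It gave this value for Timp1 and Plp2, above WT, in both contrasts with WT. Apex2 in RepB-/- and Rbbp7 in RepB+/-, both below WT and not called, had the same value, so the test could not separate them.

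Replicates of 1 genotype in ES cells, which the rule did not use, differed in share by 2.07 percentage points in RepB-/-, 0.492 in RepB+/- and 1.54 in WT for Rbbp7, and by 1.78, 7.57 and 6.79 points for Plp2. The widest replicate differences were 16.8 points in RepB+/- for Timp1, 30.2 in WT for Sh3kbp1 and 19.1 in RepB+/- for Apex2. The MEF differences (RepB minus WT) were -13.0 points for Rbbp7, -8.49 for Plp2, 8.96 for Timp1, 19.1 for Sh3kbp1 and -16.9 for Apex2, and no test was made of them, since they chose the genes.

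**Figure D3:**
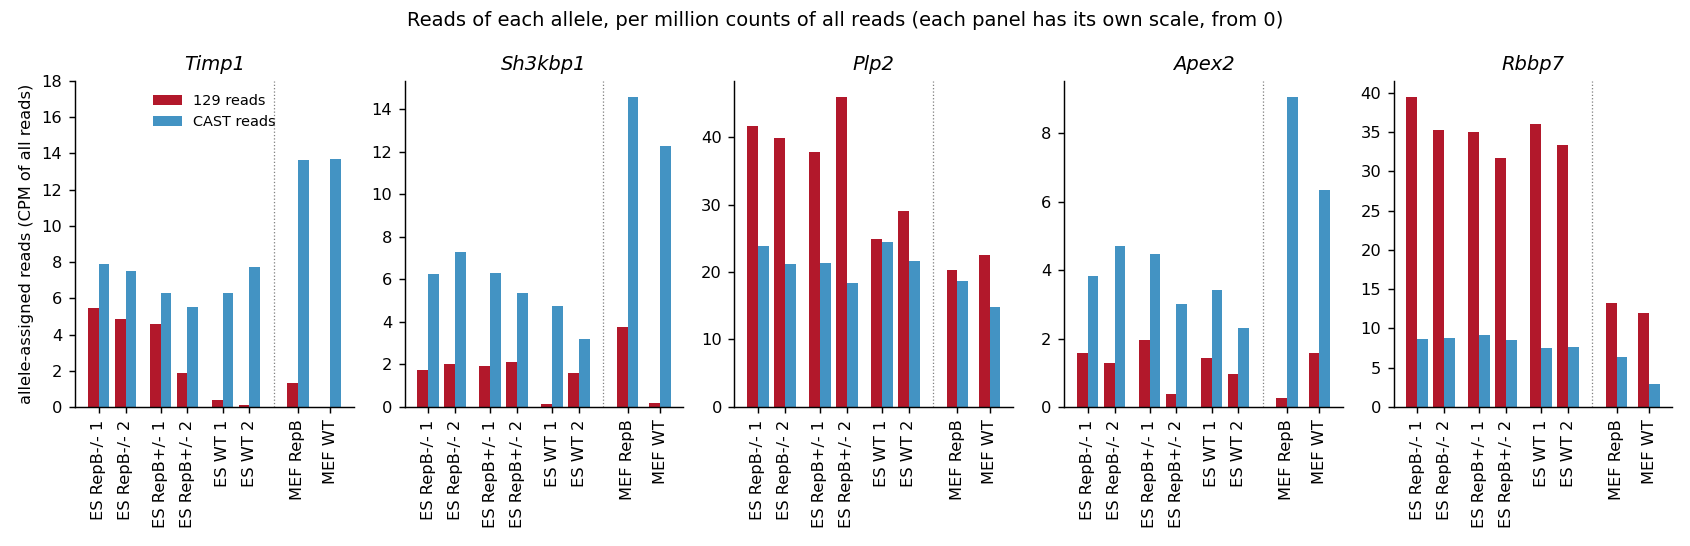
Reads given to the 129 chromosome and to the CAST chromosome in CPM (relative to all reads of the library), for each gene and library, bars from 0 with a scale per gene. In MEF the 129 bar of Timp1 and Sh3kbp1 differs more between RepB and WT than the CAST bar, and for Rbbp7 the CAST bar differs more.

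Counted over all reads, the 5 genes differed by less than 2-fold in MEF. The log2 ratio of RepB to WT, scaled with TMM, was -0.32 for Timp1, 0.19 for Sh3kbp1, -0.11 for Plp2, 0.05 for Apex2 and 0.03 for Rbbp7, where 2.45% of 368 X-linked genes were over 2-fold higher and 8.15% over 2-fold lower. Scaled by library size only, as the allele CPM are, the ratios were -0.17, 0.34, 0.04, 0.20 and 0.18 in the same order, so that the sign for Plp2 turned. In bulk samples, fewer cells of a type and less RNA per cell cannot be told apart. In ES cells Sh3kbp1 had 30.7 and 30.9 CPM in RepB-/-, 31.9 and 26.9 in RepB+/-, and 19.9 and 16.8 in WT, with both RepB genotypes wholly above WT. It rose by 0.66 on the log2 scale in RepB-/- (SE 0.128, edgeR adjusted p = 0.00318) and by 0.61 in RepB+/- (SE 0.131, edgeR adjusted p = 0.00607), and both calls were lost without WT replicate 2 (edgeR adjusted p = 0.0528 and 0.0807). Timp1 had 114 and 103 CPM in RepB-/-, 88.3 and 69.4 in RepB+/-, and 64.5 and 66.1 in WT. The groups did not overlap, and Timp1 rose by 0.65 in RepB-/- (SE 0.109, edgeR adjusted p = 0.0012) and was not called in RepB+/- (0.20, SE 0.111, edgeR adjusted p = 0.233). So 2 of the 5 genes were higher in RepB-/- and 1 in RepB+/-, where 31.5% and 33.5% of 562 X-linked genes were. None was lower, where 5.16% and 4.45% of X-linked genes were. Plp2 (0.34 in RepB-/- and 0.23 in RepB+/-), Apex2 (0.23 and 0.25) and Rbbp7 (-0.03 and -0.10) were not called. Between RepB-/- and RepB+/- 0 of 562 X-linked genes were called in all reads by edgeR (0%, 43 with an unadjusted p under 0.05) and 1, lower in RepB-/-, by DESeq2, and of the 5 genes Timp1 had an unadjusted p under 0.05 (log2 change 0.45, edgeR adjusted p = 0.228).

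Marker sums of the ES cultures differed between genotypes. Pluripotency markers summed to 359 to 596 CPM in the 4 RepB libraries and 141 to 159 in WT, with all 6 over 1 CPM in every ES library, and the 5 cardiac markers summed to 143 to 208 CPM in RepB and 409 to 441 in WT. Fibroblast markers summed to 28300 to 44300 CPM in RepB and 33600 to 40100 in WT, and 13 of 14 were over 1 CPM in each ES library. Epithelial markers summed to 881 to 1130 CPM in RepB and 1430 to 1460 in WT, endothelial to 214 to 288 and 283 to 306, neural to 162 to 199 and 109 to 117, blood to 146 to 195 and 104 to 111, and smooth muscle to 2900 to 3490 and 3570 to 3610. The part of these cells in the levels of the 5 genes was not tested. Pluripotency, cardiac, epithelial and endothelial marker sums were each under 1 CPM in both MEF libraries, with Pou5f1, Nkx2-5, Cldn6 and Kdr among the genes at 0 in a MEF library. Smooth muscle markers summed to 3920 CPM in RepB MEF and 5800 in WT MEF, neural markers to 187 and 298, and blood markers to 10.1 and 18.6.

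Per length of exon, the genes fell into a high and a low group. In RPKM, which is CPM per kilobase of exon, Rbbp7 was the highest in ES cells, at 183 ± 17.6 in RepB-/-, 174 ± 10.4 in RepB+/- and 177 ± 13.3 in WT (SD, n = 2 each). Timp1 followed at 122 ± 9.33, 88.6 ± 15.0 and 73.4 ± 1.30, and Plp2 at 88.4 ± 9.76, 81.6 ± 2.70 and 66.0 ± 1.15. Timp1 and Plp2 did not differ beyond their spread in RepB+/-, where Plp2 was above Timp1 in replicate 2. Apex2 stood at 7.43 ± 0.0370, 7.45 ± 0.590 and 5.94 ± 0.483, and Sh3kbp1 at 5.15 ± 0.0239, 4.91 ± 0.597 and 3.06 ± 0.364, with no overlap of their libraries. In MEF the order began with Timp1, at 140.0 RPKM in RepB and 157 in WT, ahead of Rbbp7 at 68.7 and 60.7, Plp2 at 49.9 and 48.4, Apex2 at 12.4 and 10.8, and Sh3kbp1 at 9.82 and 7.75.

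The neighbours of the 5 genes were the 27 distinct X-linked genes among the 3 nearest measured on each side. In ES cells 24 of the 27 shifted toward 129 in RepB-/- and 24 in RepB+/-, where 62.1% and 59.7% of X-linked genes did. The sets differ, since neighbours also had to average at least 20 allelic reads in MEF. Of 293 X-linked genes averaging at least 50 allelic reads in ES cells, 229 shifted toward 129 in RepB-/- and 225 in RepB+/-. In MEF the 27 neighbours differed by -3.88 to 4.23 percentage points (RepB minus WT). Of them 0 had intervals apart, a count near the 2.07% of X-linked genes that did. Araf, which encodes a kinase of the MAP kinase cascade and lies 21.6 kb from Timp1, had 0% from 129 in both MEF libraries. In ES cells its share averaged 43.0% in RepB-/-, 45.2% in RepB+/- and 8.24% in WT. Gpkow, 29.0 kb from Plp2, had 38.6% in RepB-/-, 38.3% in RepB+/- and 9.31% in WT ES cells, and 5.03% in RepB and 8.52% in WT MEF, below Plp2 in every group. Syap1, 96.5 kb from Rbbp7, had 41.6%, 38.3% and 4.18% in the same 3 ES groups and 0% in both MEF libraries. Eif1ax, which encodes a translation initiation factor and lies 255 kb from Sh3kbp1, had 10.1% in RepB and 7.44% in WT MEF.

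**Figure D4:**
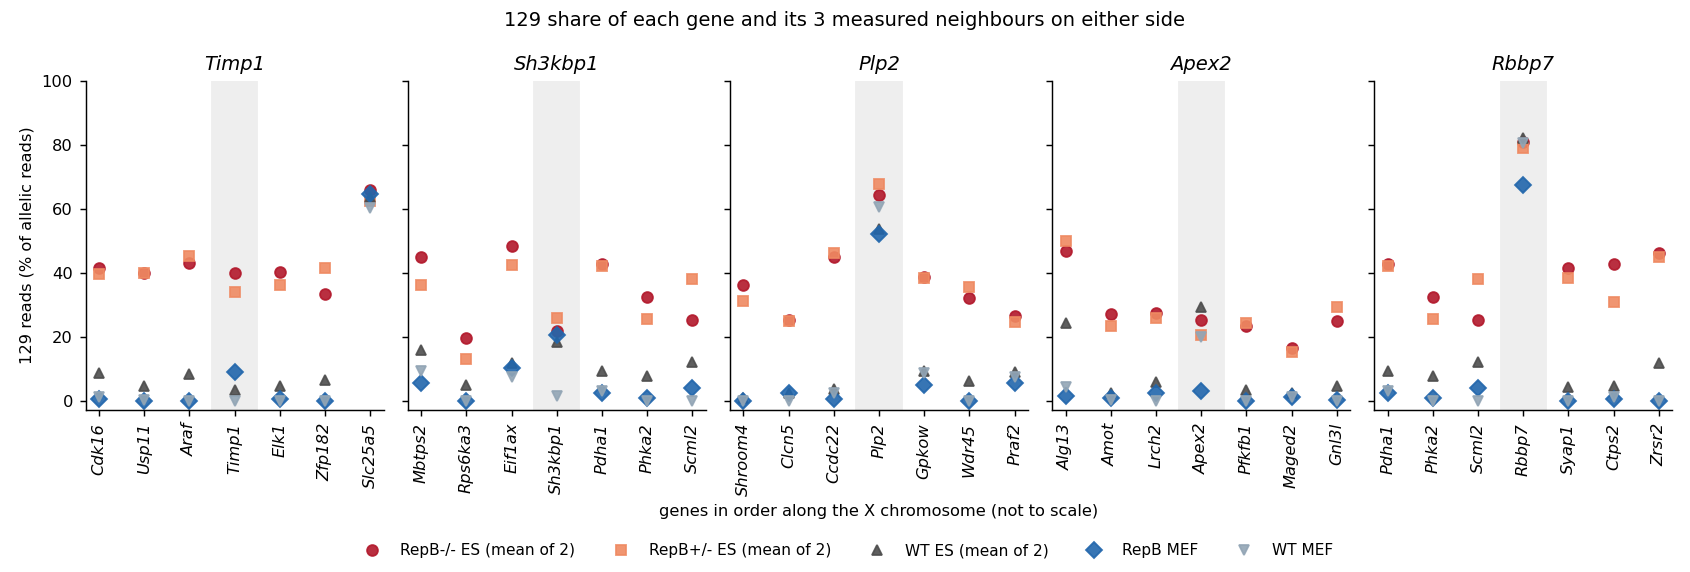
Share of 129 reads (percent of allelic reads) of each of the 5 genes, shaded, and of its 3 measured neighbours on either side in gene order, means of 2 libraries for ES genotypes and single libraries for MEF. Neighbours lie at 10.1% or less in both MEF libraries apart from Slc25a5, and most are higher in RepB than in WT ES cells.

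Plp2 and Rbbp7 belonged to a small group. Of 235 X-linked genes with a mean of at least 20 allelic reads in ES and in MEF libraries, 9 had more than 50% of reads from 129 in all 8 libraries. The others were Slc25a5, Rpl39, Rps4x, Cox7b, Hnrnph2, Ngfrap1 and Gemin8. Plp2 ranged from 50.5% to 71.5% and Rbbp7 from 67.6% to 82.8% over the libraries, and Slc25a5, a mitochondrial carrier gene, from 60.3% to 67.9%. Rpl39 and Rps4x encode ribosomal proteins, a class with many near-identical copies in the genome. Whether counts of the 9 genes, Plp2 and Rbbp7 included, hold reads of other copies or reads misassigned to an allele was not tested. Over the 8 libraries and 186 candidate X-linked genes, the shares closest to those of Timp1 were those of Gripap1 and Zfp275 (root mean square difference 3.13 percentage points each) and Prdx4 (3.61). Closest to Plp2 were Slc25a5 (7.52) and Rbm10 (8.35), and closest to Rbbp7 was Rps4x (14.2). Sh3kbp1 and Apex2 had no close match, with Hmgn5 nearest to both (10.3 and 9.99).

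Genes that work with the 5 proteins were counted in ES cells from lists of partners. Over all genes 7.26% were higher and 5.49% lower in RepB-/-, and 9.11% and 6.84% in RepB+/-. Of 21 tested matrix proteases and their inhibitors, which act with Timp1, 7 rose and 1 fell in RepB-/-, and 5 rose and 3 fell in RepB+/-. The gelatinase gene Mmp9 had 45.5 and 52.2 CPM in RepB-/-, 36.4 and 42.0 in RepB+/-, and 23.0 and 20.2 in WT, and rose by 1.09 on the log2 scale in RepB-/- and 0.77 in RepB+/- (edgeR adjusted p = 0.000118 and 0.00205). Mmp15, which encodes a membrane-bound metalloproteinase, was lower than WT in all RepB libraries and fell by 0.88 in RepB-/- and 0.70 in RepB+/- (edgeR adjusted p = 5.61e-05 and 0.000351). In MEF 4 of 20 measured genes of this list were over 2-fold lower in RepB and 0 higher (6.46% and 3.17% of autosomal genes). In the lists of Sh3kbp1, Plp2, Apex2 and Rbbp7 (25, 10, 22 and 31 measured genes) 0 were over 2-fold lower. In the Rbbp7 list 1 gene was over 2-fold higher, and 0 in those of Sh3kbp1, Plp2 and Apex2. Of 28 endocytic adaptors and Cbl partners of Sh3kbp1, 1 rose and 5 fell in RepB-/-, and 2 rose and 5 fell in RepB+/-. Met, a receptor that Cbl targets, rose by 0.65 in RepB-/- (edgeR adjusted p = 0.00133), and Egfr, another such receptor, fell by 0.75 in RepB+/- (edgeR adjusted p = 0.000241).

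Of 22 MARVEL and proteolipid membrane protein genes, relatives of Plp2 by fold or name, 1 rose and 4 fell in RepB-/-, and 3 rose and 3 fell in RepB+/-. Cmtm4 had 180.0 and 169 CPM in RepB-/-, 177 and 170.0 in RepB+/-, and 255 in each WT library, and fell by 0.63 in both (edgeR adjusted p = 0.00116 and 0.00113). Gpm6a, a neuronal membrane glycoprotein gene, rose by 1.60 in RepB-/- (edgeR adjusted p = 9.13e-05). Of 23 base excision repair genes, partners of Apex2, 0 were called by edgeR in RepB-/- (4 had an unadjusted p under 0.05), and 3 rose and 0 fell in RepB+/-, among them the uracil glycosylase gene Ung (0.64, edgeR adjusted p = 0.0023) and the DNA glycosylase gene Neil3 (0.61, edgeR adjusted p = 0.0278). Of 31 genes of the complexes that hold Rbbp7, 1 rose and 3 fell in RepB-/-, and 3 rose and 4 fell in RepB+/-. Sin3b, a scaffold of the Sin3 complex, fell by 0.64 in RepB-/- and 0.79 in RepB+/- (edgeR adjusted p = 0.00571 and 0.00132), and Mta3, a NuRD subunit gene, by 0.46 in RepB-/- (edgeR adjusted p = 0.0126). Between RepB-/- and RepB+/- edgeR called 0 of the 125 tested genes of the 5 lists, 13 of which had an unadjusted p under 0.05 (all genes: 0.0198% higher and 0.066% lower).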

How the data were processed

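Of 50 samples, the 8 RNA-seq libraries were used, and 42 were not analysed here. The authors deposited 3 tables of whole-number counts per gene, with 24 columns for all reads, 129 reads and CAST reads. Per the file headers they have the layout of featureCounts on mm9, with columns headed mus and cas, taken as 129 and CAST from the strain labels. Per the submitters' processing notes, tools of the series include Novoalign, TopHat and featureCounts. Versions, strand setting and handling of multiply mapped reads are not given in the sources used here. Reads may therefore be given less well to the allele that differs more from the reference, which was not tested. The median 129 share of chromosome 13 genes was 50.0% to 50.8% over the 8 libraries. In no gene did allelic counts exceed all counts.

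Shares have exact Clopper-Pearson 95% intervals (SciPy 1.17.1), with a floor of 3 counts for 0 reads. The 6 ES libraries entered a single fit in edgeR 4.0.16 (quasi-likelihood F-test, R 4.3.3): for alleles, terms for each library and for allele by genotype, over 11597 genes with a mean of 20 allelic reads, and for all reads, filterByExpr (minimum count 10, minimum total 15) and TMM over 15149 genes. The threshold was 0.05 after Benjamini-Hochberg adjustment across the whole table, and DESeq2 1.42.0 was an alternative. MEF ratios use CPM scaled by TMM (prior count 2), for genes of at least 1 CPM, and no test. Both fits were tested on simulated data. Genes were named by rule: the 5 genes, their 3 measured neighbours on each side, the 3 X-linked genes nearest in share, the 3 just outside the interval rule, up to 2 called genes per list and contrast, and Xist. The 5 genes, the lists and the tests were chosen with earlier results of these data known.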

Additional observations from a re-analysis of the deposited data

Results flagged for a closer look

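Plp2 moved in opposite directions in the 2 cell types. Its 129 share was higher by 13.8 percentage points in RepB+/- than in WT ES cells and by 10.6 points in RepB-/- than in WT ES cells, with each RepB library above each WT library, and lower by 8.49 points in RepB than in WT MEF (a difference of -8.49). The difference between cell types was not tested, MEF had 1 library per group, and the MEF value chose the gene. With exact 99% intervals the MEF shares of Plp2 were not apart. In ES cells the RepB+/- call was lost with DESeq2 and with TMM scaling of the allele columns, and RepB-/- was not called. Reads of the overlapping gene Prickle3 were 62.7% and 61.2% of Plp2 reads in WT ES and 29.1% to 43.9% in RepB ES. Their part in the shares was not tested.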

How the results depend on the processing

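The interval rule found 3 genes instead of 5 with 99% intervals and 5 at each other minimum of allelic reads tried. In ES cells, genes of the 5 shifted toward 129 numbered 2 in RepB+/-, and 1 with TMM scaling of the allele columns and 1 with DESeq2. Leaving out 1 library gave 1 to 3. In RepB-/- the number was 1, and 2 with only the 4 libraries compared, and leaving out 1 library gave 1 to 2. In all reads, leaving out 1 library gave 0 to 1 genes higher in RepB+/- and 1 to 3 in RepB-/-, and against RepB+/- the number higher in RepB-/- was 1 (Timp1, edgeR adjusted p = 0.0243) with no filter on low counts. The allelic calls of Timp1 held under each alternative, at adjusted p-values that differed widely. They were 0.0037 in RepB-/- and 0.0189 in RepB+/- with DESeq2. With TMM scaling of the allele columns the edgeR values were 3.88e-05 and 0.000109. No called direction reversed. The cause of these changes was not tested. Of all X-linked genes, 146 shifted toward 129 in RepB+/- with DESeq2 (225 with edgeR) and 155 in RepB-/- with TMM (234 without), and higher in all reads were as few as 78 in RepB+/- and 84 in RepB-/- without WT replicate 2. 2 libraries per genotype, 27 to 60 allelic reads of Apex2, Sh3kbp1 and Timp1 in the shallowest library and 1 MEF library per group limit what could be seen.

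Same-numbered libraries deviated together weakly (correlations 0.108, 0.0696 and 0.186), which does not settle whether the number marks a shared culture or day. With a replicate block, 2 genes shifted toward 129 in RepB-/- (Plp2 added, edgeR adjusted p = 0.0388), 3 were higher in all reads in RepB-/- than in WT (2 without it, Plp2 added), and 1 was higher in RepB-/- than in RepB+/- (Timp1, edgeR adjusted p = 0.0301). The numbers in RepB+/- against WT were as without the block.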

Other observations

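The autosomes of the MEF libraries differed in allele share chromosome by chromosome. Chromosome 7 had a median 129 share of 65.4% in RepB MEF and 46.1% in WT MEF, with 57.6% of its genes apart by the interval rule, and chromosome 10 had 65.9% and 50.9%, with 56.0% apart. On 11 of 19 autosomes fewer than 10% of the genes were apart, chromosome 9 lowest with 3.38%. Levels over all reads closest to those of Plp2 across the 8 libraries, after each gene was centred on its own mean of log2(CPM + 1), were those of Wdr45 and Gpkow (root mean square differences 0.0613 and 0.0837 among 11382 candidate genes), both of which are measured neighbours of Plp2. The closest to Timp1 was Itpripl1 (0.102), to Sh3kbp1 Rbm43 (0.0884), to Apex2 Fancc (0.0361) and to Rbbp7 Serinc3 (0.0532), all on autosomes.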
